A study of Mus musculus with 20 samples.

Results

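The 240 cells compared are 121 cornea macrophages and the retinal microglia of 2 library pairs (33 and 86 cells), all from unlesioned mice, each sequenced in a well of its own. They are the wells that the authors annotated as macrophages in cornea libraries and as microglia in control retina libraries, out of 429 annotated wells of the eye and 3840 wells sequenced. The study sorted CD45+ cells, the cells of the blood lineage, from cornea, ciliary body and retina of C57BL/6 mice aged 8 weeks, and counted their transcripts by the mCEL-Seq2 protocol, which tags each RNA molecule before amplification. Both groups come from animals without a retinal laser lesion. The design text speaks of about 6 mice and 3 independent experiments, and no label ties a library to a mouse or an experiment. Each group holds 4 libraries in 2 pairs, named by the prefix that the libraries of a pair share (cornea P2 and P5, retina P1 and P2). The libraries held 6, 50, 28 and 37 of the cornea wells and 18, 15, 28 and 58 of the retina wells. The authors named the cells from their expression, and the comparison takes 121 of 126 annotated cornea wells and every annotated control retina well. Cell type and tissue of origin therefore cannot be told apart.

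Microglia are the resident macrophages of nervous tissue, in the retina mostly of the plexiform layers. They depend on signalling through the receptor encoded by Csf1r and on TGF-beta, and the transcription factor encoded by Sall1 is central to their identity. The cornea is a transparent tissue at the surface of the eye, with a stratified epithelium over a collagenous stroma. Its macrophages lie mainly in the stroma and at the limbus, and dendritic and Langerhans cells share the tissue with them, many carrying MHC class II molecules that present antigen to T cells.

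The annotated wells gave 201485 and 205880 transcripts in the cornea pairs and 64974 and 145598 in the retina pairs, so the retina P1 pair is the least deeply sampled. Levels are given as transcripts per 1000000 of a sum (CPM). Single libraries are listed in the order cornea P2, P2, P5, P5 and retina P1, P1, P2, P2, and the first cornea library rests on its 6 wells. Differences are log2 ratios, cornea over retina, with a standard error (SE), from edgeR's quasi-likelihood test on the pair sums, and a gene counts as called with a Benjamini-Hochberg adjusted p below 0.05 over all genes tested. No label says that pairs are separate animals, and the p-values cover only the spread between these sums, which may be technical. Genes of handling and of neighbouring cells differed as well and are treated apart at the end. Immediate early genes made up 2.78% of the cornea transcripts against 0.698% in retina, and corneal epithelial genes 3.31% against 0.152%. Their part in the differences described below was not tested.

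Of 4705 genes tested, 1558 (33.1%) were called, 813 (17.3%) higher and 745 (15.8%) lower in cornea macrophages. These shares are the background for the list counts below. The median log2 difference was 0.05, and the pair values of the 2 groups did not overlap in 68.2% of genes. The split depends on scaling. With library totals in place of the TMM factors, which differ between the groups (0.944 and 0.938 in cornea, 1.23 and 1.15 in retina), 589 genes were higher and 1000 lower, and the median moved by -0.33. Changes under about this size therefore have no firm direction. Cornea and retina share the prefix P2, and within its 4 libraries alone 737 of 1551 genes (47.5%) were called, 352 higher (22.7%) and 385 lower (24.8%). That fit holds 1 pair of each tissue and takes single libraries as replicates, among them the cornea library of 6 wells. Its p-values cover only the spread between libraries of a pair, here and wherever calls within prefix P2 are given below. DESeq2 called 948 genes (20.1%), 559 higher (11.9%) and 389 lower (8.27%). Without the genes treated apart, the count was 767 higher and 746 lower of 4562, and without the cornea library of 6 wells 784 higher and 720 lower of 4467. Among genes named below, with Isg15 and Ifih1 given in their place, Ccl7 (adjusted p = 0.0502), F11r (0.0523), Scarb2 (0.0633), Lmna (0.0976) and Relb (0.193) lost their calls without that library, Bach1 (0.0330), Ccl5 (0.0382) and H2-D1 (0.0353) gained one, and Hbegf was not tested. Leaving out 1 pair lowered the counts most on the lower side. In the order without cornea P2, cornea P5, retina P1 and retina P2, which is kept below for such refits, 828, 820, 785 and 600 genes were higher and 563, 393, 615 and 323 lower. Each of these refits leaves 1 group with a single pair and tests its own set of genes (5991, 5936, 5672 and 5599 in this order). The number of list members tested can therefore differ from that of the full comparison.

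**Figure D1:**
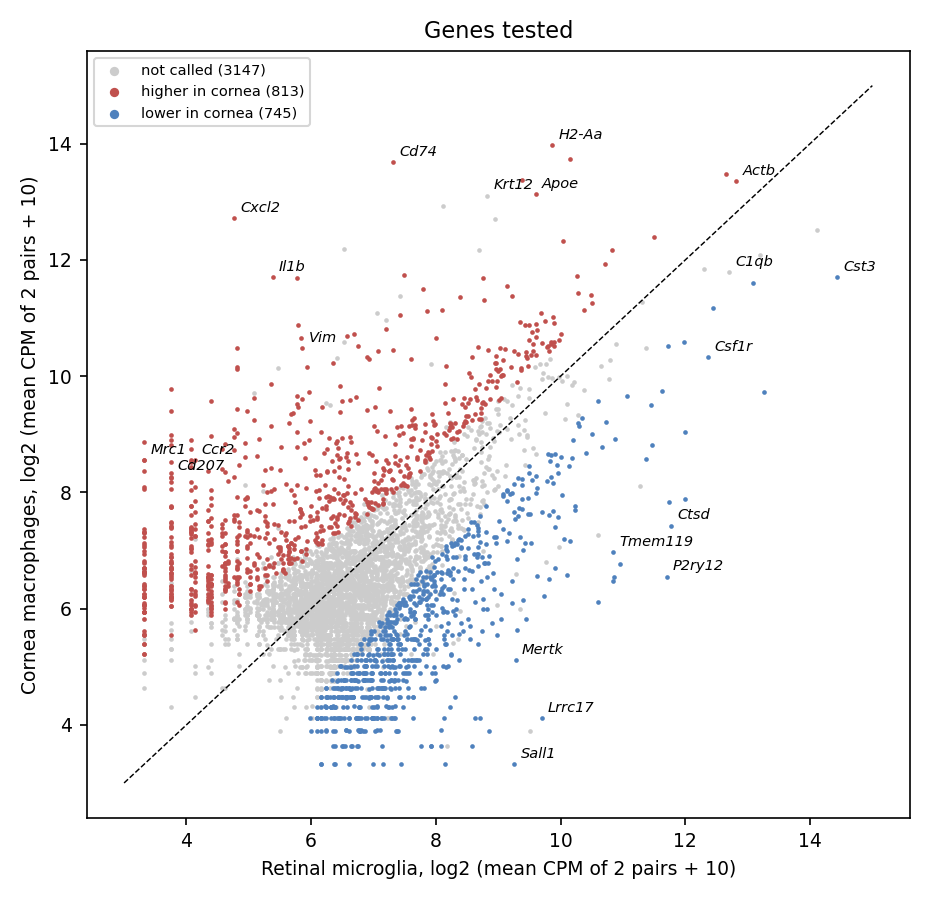
Mean level of each tested gene in retinal microglia (horizontal axis) and cornea macrophages (vertical axis), as log2 of the mean CPM of 2 pairs plus 10. Each point is 1 gene, red where called higher in cornea (813), blue where called lower (745) and grey where not called (3147). The dashed line marks equal levels, microglial genes such as P2ry12, Tmem119 and Sall1 lie far below it, and Cd74, Cxcl2 and Il1b lie far above it.

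Genes of microglial identity were lower in cornea macrophages without exception among those tested. All 25 tested of 26 listed genes were called lower (background 15.8%), with a median log2 difference of -3.76 (-3.73 with genes at 0 set to their bound), and 24 of 24 tested were lower within prefix P2. P2ry12, the purinergic receptor that guides microglial processes, stood at 47.7, 119.1, 42.9 and 79.9 CPM in the cornea libraries and at 2913, 3543, 3197 and 3549 CPM in the retina libraries. The highest cornea library thus lay far below the lowest retina library, and the log2 difference was -5.08 ± 0.36 (adjusted p = 3.72e-07). In wells thinned to 1000 transcripts, P2ry12 was found in 9.92% of cornea wells and 89.9% of retina wells. Tmem119, a membrane protein used as a microglial marker, showed 47.7, 119.1, 139.5 and 115.4 CPM in cornea and 1664, 1979, 1804 and 1875 CPM in retina (log2 difference -3.76 ± 0.32, adjusted p = 1.12e-06).

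Sall1, the zinc finger factor of microglial identity, had no transcript in any cornea well. Its retina libraries stood at 565, 607, 679 and 580.3 CPM. The level was at least 82.5-fold higher in retina (adjusted p = 1.62e-06), a bound computed with 3 transcripts over the cornea group and raw totals. Multiplying the totals by the TMM scaling factors of the fit gives at least 65.9-fold. All ratios and bounds on a fold use raw totals, and with those factors they are 1.25 times smaller where retina is higher and 1.25 times larger where cornea is. No cornea well of 121 held a transcript, which allows a share of up to 2.48% of wells, while 47.1% of the thinned retina wells did. Its paralogue Sall3 held 1 transcript in cornea and 55 in retina, a ratio of 106 (18.3 to 4278), where brackets after a ratio here and below give the 95% counting interval.

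Siglech, a sialic acid binding lectin, was lower at 47.7, 125, 85.9 and 35.5 CPM in cornea against 1575, 2234, 1911 and 1719 in retina (log2 difference -4.22 ± 0.39, adjusted p = 1.78e-06). Cx3cr1, the fractalkine receptor shared by many tissue macrophages, stood at 238, 709, 547 and 328 CPM in cornea and 3775, 3607, 4716 and 4263 in retina (log2 difference -2.75 ± 0.32, adjusted p = 1.21e-05). The cornea libraries of prefix P5 and P2 overlapped for this gene, and the groups did not.

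The other identity genes ranged widely in the size of their difference. Gpr34, a lysophosphatidylserine receptor (-4.10 ± 0.35), P2ry13 (-4.47 ± 0.38), the secreted glycoprotein Olfml3 (-4.31 ± 0.34), the matrix protein Sparc (-3.94 ± 0.34), the selectin ligand Selplg (-3.73 ± 0.31) and the lipid receptor Trem2 (-3.41 ± 0.33) stood near the middle of the list on the log2 scale. The smallest differences were those of Mef2c (-0.96 ± 0.29), Tgfbr1 (-1.31 ± 0.33) and Fcrls (-1.88 ± 0.36), which cornea macrophages kept at 308 and 272, 357 and 646 and 109 and 92.3 CPM. Cst3, the cysteine protease inhibitor cystatin C, differed by -2.49 ± 0.34, with 3181 and 3463 CPM in the cornea pairs against 25795 and 18366 CPM in retina. Slc2a5, a fructose transporter, and Crybb1, a crystallin, had no transcript in cornea and were at least 39.3 and 8.38-fold higher in retina. Serpine2, the protease nexin, and Adgrg1, an adhesion G protein-coupled receptor, held 2 and 3 cornea transcripts, with ratios of 85.1 (22.9 to 714) and 51.6 (17 to 255), retina over cornea.

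**Figure D2:**
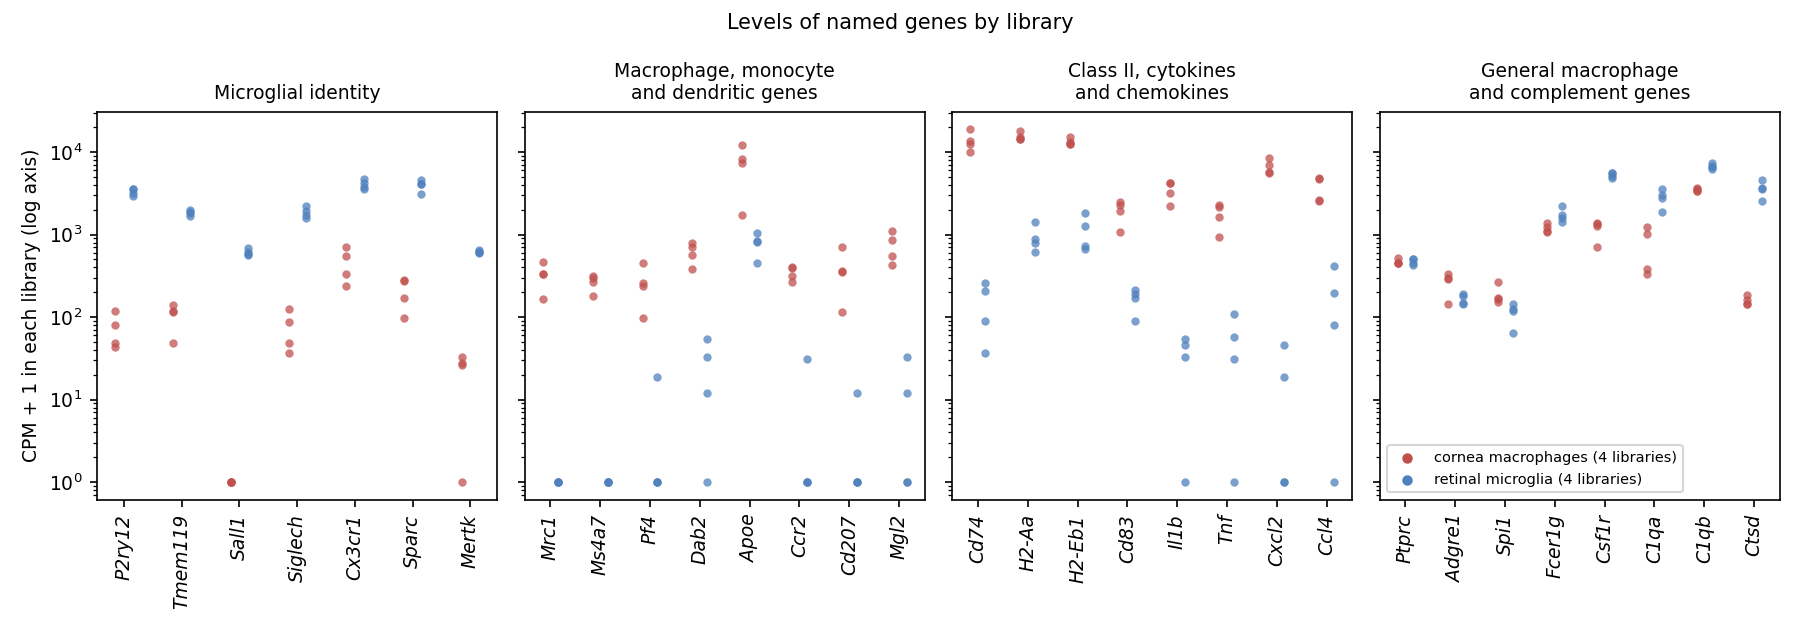
Level of selected genes in each of 4 cornea macrophage libraries (red) and 4 retinal microglia libraries (blue), in CPM plus 1 on a log axis, with 1 point per library. Microglial genes separate fully in one direction and class II and cytokine genes in the other, while Ptprc overlaps between the groups.

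Markers that both cell types should carry were closer. Of 12 general macrophage markers tested, 5 were called lower and none higher (median -0.51). With 1 pair left out in turn, 2, 2, 3 and 3 were lower. Ptprc, which encodes the CD45 used in the sort, did not differ by the test. It stood at 524, 458, 451 and 453 CPM in cornea and at 505, 511, 429 and 458 CPM in retina, overlapping ranges (log2 difference 0.19 ± 0.29, adjusted p = 0.65), and its sign turned to -0.15 with library totals. Adgre1, the F4/80 antigen, stood at 293 and 228 CPM against 169 and 165 (log2 difference 0.86 ± 0.32) and narrowly missed the threshold (adjusted p = 0.0503). Spi1, the PU.1 transcription factor of myeloid cells, stood at 169 and 204 CPM against 92.3 and 137 (log2 difference 0.84 ± 0.36, adjusted p = 0.0856). The adaptors Tyrobp (-0.36 ± 0.28, adjusted p = 0.347) and Fcer1g (-0.27 ± 0.28, adjusted p = 0.494) did not pass either.

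The 5 lower markers were Csf1r, Itgam, Fcgr1, Aif1 and Mertk. Csf1r, the receptor for colony-stimulating factor 1, stood at 715, 1386, 1266 and 1349 CPM in cornea and 5588, 5586, 5073 and 4821 CPM in retina (log2 difference -1.81 ± 0.29, adjusted p = 0.000269). Every cornea library lay below every retina library, and the gene was still found in 68.6% of the thinned cornea wells. Itgam, which encodes CD11b (-1.05 ± 0.30), Fcgr1, the high-affinity IgG receptor (-1.07 ± 0.31), and Aif1, the calcium-binding protein Iba1 (-0.95 ± 0.30), differed by smaller amounts. Mertk, a receptor tyrosine kinase for uptake of dying cells, was nearly missing from cornea at 19.9 and 29.1 CPM against 600.2 and 625 in retina (log2 difference -4.39 ± 0.38, adjusted p = 1.12e-06).

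Genes of other tissue macrophages moved the opposite way. Of 11 tested in the list of tissue and border macrophages, 6 were higher (background 17.3%) and 2 lower (median 3.75, or 3.23 with genes at 0 at their bound). Mrc1, the mannose receptor, stood at 167, 464, 333 and 328 CPM in the cornea libraries and had no transcript in any retina well, which allows a share of up to 2.52% of wells, and it was at least 25.7-fold higher in cornea (adjusted p = 0.000317). Thinned cornea wells held it in 28.9% of cases, so most single cornea macrophages showed no Mrc1 transcript at this depth. Ms4a7, a tetraspan membrane protein of macrophages outside the brain parenchyma, was likewise at least 18.1-fold higher (298 and 219 CPM in the cornea pairs and 0 in retina).

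Apoe, the lipid carrier apolipoprotein E, stood at 1739, 12252, 7459 and 8226 CPM in cornea and at 446, 829.96, 1036 and 815 CPM in retina (log2 difference 3.75 ± 0.37, adjusted p = 2.99e-06). The cornea library of 6 wells was the lowest of the 4, and still above every retina library. Dab2, an endocytic adaptor, was higher by 4.99 ± 0.46 (645 and 685 against 15.4 and 27.5 CPM), and Pf4, a platelet factor chemokine made by resident macrophages, showed a ratio of 65.6 (11.6 to 2613), cornea over retina. Clec10a, a galactose lectin, had 16 transcripts in cornea and 0 in retina and was also called. Of the 2 lower members, 1 was the transcription factor Maf (-1.53 ± 0.32). Stab1 (0.15 ± 0.52), Gas6 (-0.64 ± 0.42) and Cbr2 (3.23 ± 1.29) did not pass. Cd163, the haemoglobin scavenger receptor, held 8 transcripts in cornea and 0 in retina, too few to test, and Lyve1 held none in either group.

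Monocyte genes were higher in cornea for 8 of 10 tested and lower for none (median 3.92), and for 6 of 6 within prefix P2. Ccr2, the receptor that draws monocytes out of the bone marrow, stood at 262, 408, 311 and 390.4 CPM in cornea and at 29.7, 0, 0 and 0 CPM in retina. Its 76 transcripts in cornea P2 and 73 in cornea P5 against 1 in retina gave a ratio of 77 (13.6 to 3062) (adjusted p = 5.05e-06), and 21.5% of thinned cornea wells held one. The hyaluronan receptor Cd44 (4.55 ± 0.49), the lysozyme Lyz1 (2.83 ± 0.37), the calcium-binding protein S100a6 (3.80 ± 0.85) and Plac8 (2.65 ± 0.69) were higher too. S100a4 and Plbd1, a phospholipase-like protein, had ratios of 30 (8.11 to 251) and 46.5 (8.14 to 1858). Lyz1 has a near-identical copy, so its reads may be shared. Ly6c2, the surface marker of classical monocytes, did not pass at 69.5 and 0 against 15.4 and 20.6 CPM (1.05 ± 1.29, adjusted p = 0.564).

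Some dendritic and Langerhans cell markers were higher in the cornea wells annotated as macrophages. Of 7 tested, 4 were called higher and 1 lower (median 5.12, or 2.26 with genes at 0 at their bound). Cd207, the langerin of Langerhans cells, stood at 715, 112.9, 354 and 364 CPM in cornea and at 0, 0, 0 and 11.2 CPM in retina, with a ratio of 63.1 (11.1 to 2511) (adjusted p = 0.000456). Its transcripts came from 15 of the 121 cornea wells. Cd209a, a lectin of monocyte-derived dendritic cells, had a ratio of 34.6 (6.01 to 1388) and came from 20 wells. Ccl22, a chemokine for T cells, was at least 6.55-fold higher and came from 14 wells. Dpp4 had 11 transcripts against 0. The member called lower was Fscn1, the actin bundler fascin (-3.56 ± 0.55), while Flt3 and Xcr1 did not pass.

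C-type lectins, pattern and glycan receptors of myeloid cells, were higher in 9 of 12 tested and lower in none (median 4.83, or 3.92 with genes at 0 at their bound). Mgl2, a galactose lectin, stood at 429, 552, 848 and 1100.3 CPM in cornea and 0, 31.9, 0 and 11.2 CPM in retina (ratio 79.9 (21.9 to 662), adjusted p = 6.12e-06). Clec4n, the dectin-2 receptor, was at least 10.5-fold higher. Clec4a1 and Clec12a showed ratios of 22.7 (3.87 to 919) and 17.1 (2.86 to 694), and Clec4a2 a difference of 1.88 ± 0.51. Clec7a, the dectin-1 receptor, stood at 218 and 316 against 339 and 247 CPM and did not pass (0.13 ± 0.32, adjusted p = 0.782), and neither did Clec5a (0.36 ± 0.46) or Clec4a3 (1.45 ± 0.56). Without the cornea wells of the authors' clusters 3 and 16, described below, 6 of 11 lectins and 0 of 5 dendritic and Langerhans markers were called higher, an alternative chosen after the data were seen. Members of these lists (Cd207, Cd209a, Mgl2 and Ccl22) picked out the clusters, so a fall in these counts was built in and tests neither list.

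Transcription factors of myeloid cells went both ways, with 7 of 30 tested higher, near the background of 17.3%, and 12 lower (background 15.8%). Their median was -0.08, and 15 were lower with library totals. With 1 pair left out, 9, 6, 11 and 7 were lower. Besides Sall1, Sall3, Maf and Mef2c, the lower group held Mef2a (-1.36 ± 0.30), Irf8, a factor of microglial and monocyte development (-1.40 ± 0.36), Irf5 (-1.36 ± 0.42), Cebpa (-1.10 ± 0.35), Elk3 (-1.58 ± 0.44) and Bach2 (-2.48 ± 0.56). Bhlhe41 was lower too, with a ratio of 21.9 (6.9 to 112), retina over cornea. Its paralogue Bhlhe40 went the other way, at 273 and 219 CPM in cornea and 30.8 and 27.5 in retina (log2 difference 3.29 ± 0.45, adjusted p = 6.00e-05). Also higher were Id2, an inhibitor of helix-loop-helix factors (2.74 ± 0.38), the NF-kB subunit Rel (2.69 ± 0.37), Irf1 (2.36 ± 0.36), Runx3 (2.32 ± 0.49) and Cebpb (2.17 ± 0.51). Ets2 had a ratio of 19.6 (5.25 to 165), cornea over retina. Runx1 (0.67 ± 0.32), Zeb2 (-0.77 ± 0.35) and Bach1 (0.87 ± 0.33) did not pass the test.

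Antigen presentation by MHC class II set the cornea macrophages apart. Of 12 class II and costimulation genes tested, 9 were higher and none lower (median 2.80), and 9 higher and 2 lower with library totals. Cd74, the invariant chain that guides class II molecules through the cell, stood at 13604, 10164, 18987 and 12441 CPM in the cornea libraries and at 208, 255, 35.7 and 89.3 CPM in the retina libraries (log2 difference 6.84 ± 0.50, adjusted p = 3.81e-07). H2-Aa, a class II alpha chain, stood at 14438, 18252, 14511 and 15165 CPM in cornea and at 1427, 894, 786 and 614 CPM in retina (log2 difference 4.38 ± 0.38, adjusted p = 1.12e-06). The 4 cornea libraries lay close together for H2-Aa and well above every retina library. The thinned cornea wells held H2-Aa in 94.2% of cases and Cd74 in 94.2%, against 37% and 9.24% of retina wells.

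The beta chains H2-Eb1 (14855 and 12570.4 against 1554 and 694 CPM, log2 difference 3.87 ± 0.40) and H2-Ab1 (10373 and 10895 against 985 and 323 CPM, 4.32 ± 0.45) were of similar size. H2-DMb1, a chain of the peptide-loading chaperone, was higher by 2.16 ± 0.37. Its partner H2-DMa did not pass (0.73 ± 0.33, adjusted p = 0.0985), nor did the chaperone's inhibitor chains H2-Oa (-1.45 ± 0.64, adjusted p = 0.088) and H2-Ob (-1.30 ± 0.56, adjusted p = 0.0824), which have fitted values below 0. Ciita, the master regulator of class II transcription, had 29 transcripts against 3 (ratio 5 (1.55 to 25.6), adjusted p = 0.0181). The maturation marker Cd83 (3.89 ± 0.35) and the costimulator Cd86 (1.39 ± 0.32) were higher, as was Cd40 (ratio 8.01 (2.04 to 69.1)).

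Class II genes are read from promoters with a shared set of upstream boxes, one of which is the Y box. RefSeq promoter windows of 250 bases before to 50 after the start (assembly GRCm38.p6) were matched by symbol for 6 of the 12 class II and costimulation genes tested. The core GATTGG, searched on both strands (its complement reads CCAATC), was in 6 of 6, against 16.1% of all 32851 promoters and 18.7% of those of tested genes. The 6 include H2-DMa, H2-Oa and H2-Ob, which were not called. The windows of the 3 called members are shown on the gene's strand, 5′ to 3′, with the core in capitals. They are H2-Aa at chr17:34287837-34287902 (minus strand), H2-Eb1 at chr17:34305802-34305866 (plus strand) and H2-DMb1 at chr17:34153099-34153164 (plus strand), and a match describes the letters only.
H2-Aa: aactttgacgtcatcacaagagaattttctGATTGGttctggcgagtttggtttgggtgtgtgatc
H2-Eb1: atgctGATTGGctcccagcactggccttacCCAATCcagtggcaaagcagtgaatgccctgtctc
H2-DMb1: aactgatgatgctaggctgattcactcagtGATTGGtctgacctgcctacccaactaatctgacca

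Class I presentation genes, which serve CD8 T cells, did not follow class II. Of 10 tested, none was higher and 1 was lower (median -0.10). The one lower was H2-T23, a non-classical class I chain (228 and 146 against 800.3 and 632 CPM, log2 difference -1.69 ± 0.36, adjusted p = 0.00239). B2m, the common light chain, stood at 3926 and 3381 against 5571 and 4471 CPM (-0.22 ± 0.28, adjusted p = 0.578) and H2-D1 at 1295 and 1199.7 against 1016 and 789.8 CPM (0.71 ± 0.28, adjusted p = 0.0674). Class I chains resemble each other closely, so reads may be shared between them.

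Chemokines were higher in 10 of 15 tested and lower in none (median 4.16, or 3.31 with genes at 0 at their bound), and 9 were higher and 1 lower with library totals. Cxcl2, which attracts neutrophils, stood at 5575, 5668, 7030.1 and 8589.6 CPM in cornea and at 0, 0, 17.9 and 44.6 CPM in retina (log2 difference 8.38 ± 0.57, adjusted p = 3.29e-07). A transcript was found in 76% of the thinned cornea wells and 3.36% of the retina wells, so it was common among single cornea macrophages. The inflammatory chemokines Ccl4 and Ccl3 were higher by 4.63 ± 0.38 and 3.31 ± 0.35, at 3092 and 3749.8 and at 2020 and 2487 CPM in the cornea pairs. The monocyte attractants Ccl2 (3.31 ± 0.41) and Ccl7 (at least 10.5-fold) were higher, as was the membrane-bound Cxcl16 (3.49 ± 0.36). Cxcl1 and Cxcl10, ligands of CXCR2 and CXCR3, had ratios of 140.1 (24.9 to 5553) and 16.3 (4.32 to 137). Ccl5 (-1.68 ± 0.77), Ccl6 (-0.91 ± 0.36), Ccl9 (0.80 ± 0.30) and Ccl12 (0.08 ± 0.41) did not pass, and Ccl12 is a close relative of Ccl2.

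Among receptors for such signals, 6 of 10 tested were higher and 3 lower, and 2, 1, 2 and 2 were lower with 1 pair left out. Higher were Ccr1 (3.79 ± 0.50), the non-signalling Ccrl2 (3.50 ± 0.44), the anaphylatoxin receptors C5ar1 (1.43 ± 0.40) and C3ar1 (1.03 ± 0.29), Ccr2, and Cxcr4 with a ratio of 29.5 (7.97 to 246). The lower genes included Cx3cr1 and the chemerin receptor Cmklr1 (-1.99 ± 0.52).

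Inflammatory cytokines were higher as well, with 6 of 12 tested called higher and 1 lower (median 2.82, or 1.94 with genes at 0 at their bound). Il1b, the secreted interleukin 1 beta, stood at 4241, 3173, 2200.3 and 4188 CPM in cornea and at 0, 31.9, 53.6 and 44.6 CPM in retina (log2 difference 6.69 ± 0.45, adjusted p = 3.29e-07). Tnf stood at 929, 1649, 2179 and 2298 CPM in cornea and 29.7, 0, 107 and 55.8 CPM in retina (log2 difference 5.31 ± 0.49, adjusted p = 1.75e-06). No retina library reached the lowest cornea library for either gene, and 66.1% and 64.5% of the thinned cornea wells held them, against 3.36% and 2.52% of retina wells. Il1a was higher by 3.79 ± 0.46, Pdgfa by 1.85 ± 0.65, the receptor antagonist Il1rn by a ratio of 29.5 (5.08 to 1184), and the growth factor Hbegf by at least 3.62-fold. Il16 was lower (-2.36 ± 0.72). Leaving out 1 pair gave 7, 5, 8 and 3 higher genes in the list. Tgfb1 (-0.17 ± 0.46), Il18 (-0.20 ± 0.65) and Osm (1.42 ± 0.74) did not pass.

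NF-kB is the factor family that drives such cytokines, and its inhibitors are among its own targets. Of 14 response genes tested, 12 were higher and none lower (median 2.47), and 7 of 9 within prefix P2. Nfkbia, the inhibitor IkB alpha, stood at 1215, 2621, 1889 and 2236 CPM in cornea and 178.3, 128, 250.1 and 312 in retina (log2 difference 3.46 ± 0.37, adjusted p = 6.70e-06). Tnfaip3, the feedback enzyme A20, was higher by 3.15 ± 0.40 (689.9 and 840.3 against 46.2 and 130.5 CPM). The endotoxin coreceptor Cd14 (2.38 ± 0.31), the adhesion molecule Icam1 (2.56 ± 0.38), Tnfaip2 (2.66 ± 0.53), Nfkb2 (1.87 ± 0.41), Relb (1.81 ± 0.66), the superoxide dismutase Sod2 (1.75 ± 0.52) and Tlr2 (1.25 ± 0.35) were higher too. Ptgs2, the inducible cyclooxygenase, and Traf1 had ratios of 43.4 (7.58 to 1735) and 8.01 (2.04 to 69.1). Nfkb1 (0.58 ± 0.34, adjusted p = 0.204) and Birc3 (0.86 ± 0.38, adjusted p = 0.0899) did not pass. The immediate early share is higher in the same libraries, 1.84, 2.5, 2.96 and 3.81% in cornea and 0.666, 0.683, 0.748 and 0.694% in retina, and its part in these differences was not tested.

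The kappaB sequence GGAAATTCC, searched on both strands (its complement reads GGAATTTCC), was in 3 of 11 NF-kB response promoters and 3 of 10 chemokine promoters matched by symbol in the same RefSeq table. It was in 0.317% of all promoters and 0.571% of those of tested genes. None of the windows printed here for it holds the Y-box core. Windows around it follow for 5 called genes, with the sequence in capitals on the strand where the gene is read. They lie at chr5:90903773-90903841 (Cxcl2, plus strand), chr5:90891145-90891213 (Cxcl1, plus), chr12:55492648-55492706 (Nfkbia, minus), chr10:19015411-19015464 (Tnfaip3, minus) and chr9:21015757-21015825 (Icam1, plus).
Cxcl2: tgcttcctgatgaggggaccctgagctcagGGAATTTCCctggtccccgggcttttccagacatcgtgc
Cxcl1: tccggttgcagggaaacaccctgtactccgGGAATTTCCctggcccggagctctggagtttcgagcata
Nfkbia: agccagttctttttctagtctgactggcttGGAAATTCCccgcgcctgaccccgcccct
Tnfaip3: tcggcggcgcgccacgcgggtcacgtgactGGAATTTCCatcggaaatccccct
Icam1: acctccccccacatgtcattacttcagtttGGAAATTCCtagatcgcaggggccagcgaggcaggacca

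Of 20 receptors for growth factors and cytokines tested, 3 were higher and 5 lower (median -0.48), which is near the background of 17.3% higher and 15.8% lower, and DESeq2 called 2 higher and 4 lower. Besides Csf1r, lower genes were Csf3r, the granulocyte colony-stimulating factor receptor (69.5 and 9.71 against 585 and 659 CPM, log2 difference -3.75 ± 0.51, adjusted p = 0.000131), Il6st, the gp130 signalling chain (-2.81 ± 0.35), Il6ra (-1.37 ± 0.33) and Il17ra (-1.50 ± 0.44). Higher were Csf2ra (0.84 ± 0.29), Il2rg (1.29 ± 0.38) and the interleukin 1 decoy receptor Il1r2 (ratio 10.9 (2.82 to 92.6)). With library totals 1 of the list was higher and 7 lower, and with 1 pair left out 2, 3, 2 and 1 were higher. The interferon receptors and the interleukin 10 receptor did not pass, for example Ifngr1 at 288 and 243 against 323 and 673 CPM (-0.75 ± 0.36, adjusted p = 0.116).

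In the TGF-beta pathway, 5 of 14 tested were lower (background 15.8%) and 2 higher, near the background of 17.3% (median -0.74). Both receptor chains were lower in cornea, Tgfbr1 at 357 and 646 against 1262 and 1628 CPM (log2 difference -1.31 ± 0.33, adjusted p = 0.00635) and Tgfbr2 at 179 and 223 against 693 and 625 CPM (-1.48 ± 0.31, adjusted p = 0.00201). Itgb5, an integrin chain that can release the active ligand (-2.16 ± 0.31), and Bmpr2 (-1.30 ± 0.41) were lower, as was the coreceptor Eng (ratio 7.74 (2.09 to 42.7), retina over cornea). Skil, a repressor of Smad signalling (1.45 ± 0.31), and Nrros, which tethers latent TGF-beta on myeloid cells (0.88 ± 0.32), were higher. With library totals 1 of the list was higher and 6 lower, and with 1 pair left out 2, 3, 5 and 2 were lower. Smad3 (-1.34 ± 0.55), Smad4 (0.35 ± 0.61) and Smad7 (-0.98 ± 0.51) did not pass.

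Purinergic genes, which sense nucleotides and adenosine, were lower in 4 of 8 tested and higher in 1. Besides P2ry12 and P2ry13, Entpd1, the ectoenzyme CD39 that breaks down ATP, was lower at 74.4 and 68 against 446 and 302 CPM (-2.11 ± 0.36, adjusted p = 0.000427). The adenosine receptor Adora3 held 1 cornea transcript and 42 in retina, a ratio of 81.3 (13.8 to 3285). P2rx7 (-1.04 ± 0.43), P2rx4 (-0.32 ± 0.49) and P2ry6 (-1.002 ± 0.44) did not pass, and the gene called higher was P2ry10 (ratio 5.69 (1.4 to 49.9), cornea over retina). With library totals none was higher and 6 were lower.

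Complement genes divided evenly, 4 of 9 higher and 4 lower. The refits without 1 pair gave 4, 3, 4 and 2 higher and 2, 1, 2 and 3 lower genes. The C1q chains that start the classical pathway were lower or not called. C1qa stood at 1239, 1028, 386 and 328 CPM in cornea and 1872, 3607, 3001 and 2768 CPM in retina (log2 difference -1.74 ± 0.41, adjusted p = 0.00576), with a wide spread among cornea libraries. C1qc was lower (-1.04 ± 0.28), and C1qb did not pass at 3623 and 3473 against 6941 and 6415 CPM (-0.68 ± 0.30, adjusted p = 0.0926). Itgam was lower too. Higher were the receptors C5ar1 and C3ar1, properdin (Cfp, ratio 17.1 (4.54 to 144)) and Itgax, the CD11c chain (ratio 40.8 (7.12 to 1633)).

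Receptors for dying cells and modified lipids also split, with 5 of 18 higher and 6 lower. The TAM receptor kinases went opposite ways. Mertk was lower, as given above, and Axl higher at 536 and 505 against 61.6 and 185 CPM (log2 difference 2.12 ± 0.39, adjusted p = 0.000757). Their bridging ligand Pros1 was lower (-3.20 ± 0.45), as were Trem2, Lrp1 (-1.61 ± 0.35), Itgb5 and the lysosomal Scarb2 (-1.001 ± 0.35). Besides Axl and Mrc1, the fatty acid receptor Cd36 (ratio 35.7 (6.19 to 1429)), Msr1 (ratio 13.4 (2.21 to 551)) and Cd93 (ratio 6.72 (1.68 to 58.4)) were higher. Among 7 Fc receptor genes, Fcgr3 (-1.46 ± 0.30), Fcgr1 and Fcrls were lower and Fcgr4 higher (169 and 185 against 61.6 and 89.3 CPM, 1.36 ± 0.39, adjusted p = 0.015). Fcgr4 lost its call with library totals, where none of the list was higher. The inhibitory Fcgr2b stood at 293 and 345 against 508 and 488 CPM and did not pass (-0.41 ± 0.30).

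Lysosomal genes were lower in 12 of 27 tested and higher in none (median -0.62), and 7, 6, 11 and 7 were lower with 1 pair left out. Ctsd, the aspartic protease cathepsin D, stood at 143, 181.8, 160.99 and 142 CPM in cornea and 3626, 4597, 3537 and 2522 CPM in retina (log2 difference -4.19 ± 0.34, adjusted p = 7.82e-07). Lgmn, the asparaginyl protease legumain, was lower, with a log2 difference of -2.58 ± 0.30 (407 and 340.004 against 2709 and 2541 CPM). Ctss (-1.26 ± 0.29), Ctsl (-1.29 ± 0.30), Ctsz (-1.36 ± 0.31), the mannosidase Man2b1 (-1.18 ± 0.29) and progranulin (Grn, -1.31 ± 0.28) showed smaller differences. The change was thus uneven within the class. Ctsb stood at 1668 and 1311 against 1893 and 1868 CPM (-0.11 ± 0.28, adjusted p = 0.798), Ctsc at 1032 and 933 against 662 and 989 (0.45 ± 0.30, adjusted p = 0.273) and Psap at 1251 and 1035 against 1924 and 1257 (-0.23 ± 0.30, adjusted p = 0.584), none of them past the test.

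Lipid genes were higher in 10 of 15 tested and lower in 1 (median 2.73). Beside Apoe, the higher genes included enzymes and controls of sterol synthesis, the synthase Hmgcs1 (189 and 214 against 30.8 and 61.8 CPM, 2.17 ± 0.49), the epoxidase Sqle (ratio 18.6 (3.13 to 755)) and the sensor Insig1 (ratio 10.6 (2.75 to 90.4)). The desaturase Scd2 was higher by 2.35 ± 0.40, the cholesterol 25-hydroxylase Ch25h by a ratio of 33.6 (5.82 to 1347) and the lipid droplet protein Plin2 by 5.86 (1.84 to 29.8). Lpcat2, a lysophospholipid acyltransferase, was the 1 lower member (258 and 219 against 985 and 1071 CPM, -1.89 ± 0.29, adjusted p = 0.000197). Abca1 (-0.39 ± 0.40) and Lpl (0.61 ± 0.35) did not pass.

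Iron genes split 3 higher and 3 lower of 7, with 1, 2, 1 and 0 lower when 1 pair was left out. The storage proteins Fth1 (3722 and 4022 against 1862 and 1490.4 CPM, 1.44 ± 0.29) and Ftl1 (1772 and 826 against 631 and 350.3 CPM, 1.68 ± 0.38) and the haem oxygenase Hmox1 (2.69 ± 0.53) were higher. The iron exporter ferroportin (Slc40a1), held 1 cornea transcript and 27 in retina, a ratio of 52.2 (8.61 to 2139), retina over cornea. The transporter Slc11a1 (-1.10 ± 0.35) and transferrin (Trf, -1.08 ± 0.30) were lower.

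Matrix and proteolysis genes were higher in 6 of 10 tested and lower in 2. Mmp12, the macrophage elastase, stood at 1024, 495, 311 and 453 CPM in cornea and 0, 0, 0 and 11.2 in retina (ratio 104 (18.5 to 4144), adjusted p = 2.16e-06). Mmp13, a collagenase, was at 1096, 132, 258 and 346 CPM in cornea and had no retina transcript, at least 22.4-fold higher (adjusted p = 4.33e-06). One well gave 30.1% of the Mmp13 transcripts, which came from 28 wells in all. Tgfbi (3.45 ± 0.40), a matrix protein also made by corneal epithelium, and Mmp14 (1.66 ± 0.50) were higher, as were urokinase Plau and its receptor Plaur (ratios 8.1 (2.61 to 40.7) and 8.1 (2.61 to 40.7)). Timp2, a metalloprotease inhibitor (-1.76 ± 0.33), and Sparc were lower.

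Integrin and adhesion genes were lower in 8 of 19 tested (background 15.8%) and higher in 4, near the background of 17.3%. With 1 pair left out, 6, 5, 7 and 6 of the list were lower. The tetraspanins Cd81 (382 and 495 against 2739.6 and 2926 CPM, -2.46 ± 0.30, adjusted p = 1.93e-05) and Cd9 (-1.75 ± 0.29) were lower together with Itga6 (-1.81 ± 0.37), Itgb5, Itgam, Selplg and F11r (-0.87 ± 0.29). Itgb3 held 1 cornea transcript (ratio 29 (4.46 to 1222), retina over cornea). Higher were Cd44, Icam1, Itgax and Itgal. Itgb1 (0.75 ± 0.30) and Itgb2 (-0.82 ± 0.37), the common beta chains, did not pass.

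Calcium and membrane-binding proteins gave one of the broadest one-sided groups. Of 21 genes of the S100, annexin, galectin and vimentin list, 15 were higher and 1 lower (median 3.80), and 11 of 14 were higher within prefix P2. Vim, the intermediate filament vimentin, stood at 1549, 1235, 912 and 2049.8 CPM in cornea and 118.9, 0, 17.9 and 44.6 CPM in retina (log2 difference 5.22 ± 0.41, adjusted p = 6.14e-07). Lgals3, galectin 3 (4.33 ± 0.42), S100a10 (4.68 ± 0.51), S100a11 (3.88 ± 0.38), Anxa2 (3.88 ± 0.45), Anxa5 (2.85 ± 0.36) and Ahnak (4.56 ± 0.53) were higher, and Anxa1 and Lgals1 had ratios of 75.5 (13.3 to 3001) and 43.9 (7.68 to 1756). Anxa3 was the 1 lower member (169 and 68 against 569 and 762 CPM, -2.29 ± 0.37). Several of these genes are also made by corneal epithelium, whose marker genes held 3.36, 2.73, 4.23 and 2.9% of transcripts in the cornea libraries, and the part of that RNA was not tested.

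Actin genes were higher in 16 of 20 tested and lower in none (median 1.29), and in 12 with library totals. Actg1, cytoplasmic gamma actin, stood at 5425 and 4852 against 1000.4 and 1092 CPM (log2 difference 2.52 ± 0.30, adjusted p = 1.74e-05). Tropomyosin Tpm4 (2.95 ± 0.39), the myosin light chains Myl6 (1.84 ± 0.30) and Myl12a (1.82 ± 0.33) and the Arp2/3 subunits Arpc2 (1.37 ± 0.29) and Arpc3 (1.48 ± 0.34) were higher. Coro1a (0.28 ± 0.29) and Capza2 (-0.25 ± 0.29) did not pass.

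Interferon response genes were higher in 5 of 15 tested and lower in none (median 1.01). With 1 pair left out, the median was 1.29, 1.63, 1.52 and 2.01 over 16, 18, 19 and 19 genes tested. Ifitm3, a membrane protein that restricts viruses, stood at 323 and 423 against 92.3 and 61.8 CPM (log2 difference 2.57 ± 0.38, adjusted p = 0.000131), and Ifitm2 was higher by 3.62 ± 0.80. Cxcl10, Isg15 (ratio 4.82 (1.49 to 24.8)) and Ifih1 (ratio 13.4 (2.21 to 551)) were the others. The cornea library of 6 wells held 11 of the 26 Ifih1 transcripts in cornea. Without it the Ifih1 ratio was 8.64 (1.33 to 364), the gene was no longer tested, Isg15 had an adjusted p of 0.0534, and 4 of 14 genes of the list were higher. Irf7 (0.998 ± 0.64) and Bst2 (-0.22 ± 0.39), core members of the response, did not pass.

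Genes of energy metabolism differed little. Of 23 nuclear genes of oxidative phosphorylation tested, 5 were higher, near the background of 17.3%, and none lower (median 0.39). With library totals 1 was higher, by DESeq2 0 and within prefix P2 0 of 15. Leaving out 1 pair gave 3, 6, 2 and 0 higher genes, so these calls depended on the setting. Cox5a, a cytochrome oxidase subunit, was among the 5 (1.66 ± 0.48, adjusted p = 0.0141). Of 11 glycolysis genes, 1 was lower, the hexokinase Hk2 (104 and 68 against 277 and 302 CPM, -1.54 ± 0.35, adjusted p = 0.00345), and Gapdh stood at 427 and 563 against 877 and 508 CPM (-0.21 ± 0.31, adjusted p = 0.634). Cell cycle genes were higher in 7 of 9 tested, led by H2afz (1.94 ± 0.33), Top2a (2.83 ± 0.71) and Rrm2 (at least 5.34-fold). The proliferation marker Mki67 was higher by 1.51 ± 0.57 (adjusted p = 0.0491) with transcripts in 17 cornea wells and 6 retina wells. Without the authors' clusters 3 and 16, 2 of 7 cell cycle genes were higher, in a refit with fewer cornea wells and fewer list members tested. These genes were not confined to the clusters left out. Mki67 stood at 148 and 216 CPM in clusters 3 and 16 and at 349 CPM in cluster 6, and Top2a at 131, 346 and 314 CPM. With 1 pair left out, the median log2 difference of the cell cycle list was 2.31, 1.17, 2.24 and 1.42 over 15, 10, 14 and 15 genes tested. In the full comparison it was 1.59 over 9.

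Cytosolic ribosomal protein genes were higher in 47 of 73 tested and lower in none (median 0.99). They held 9.82, 7.75, 7.37 and 6.63% of transcripts in the cornea libraries and 4.09, 4.49, 4.11 and 4.35% in the retina libraries (exact permutation p = 0.0286 over 4 against 4 libraries, the smallest the test can give, adjusted p = 0.0317 over 10 measures). No label says that the libraries of a pair are independent, as this test takes them to be. With library totals 25 of 73 were called, with wells thinned to equal totals 20 of 69, and with 1 pair left out 30, 63, 33 and 27. In the wells under 1% epithelial and photoreceptor transcripts, which hold 5 cornea wells, 0 of 71 were higher and 1 was lower (median 0.08). The median over all genes tested in those wells was -0.60, and what set either median was not tested. Rpl5 (1.67 ± 0.33), Rps20 (1.62 ± 0.33) and Rpsa (1.65 ± 0.31) were among those with the smallest adjusted p.

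**Figure D3:**
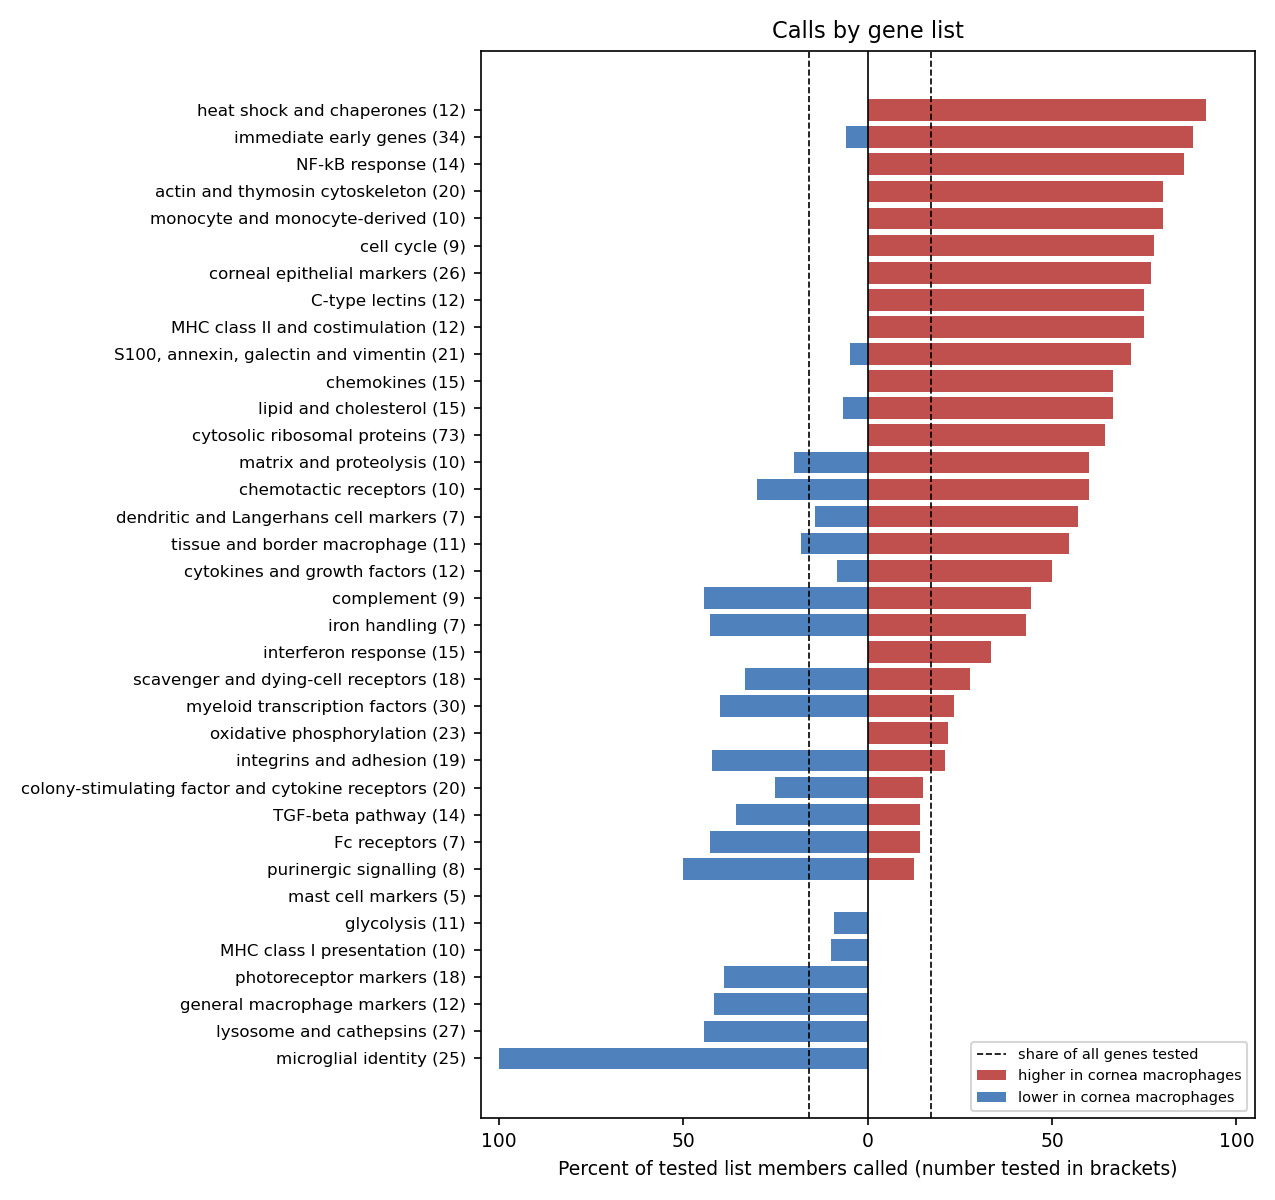
Percent of the tested members of each gene list called higher (red, to the right) or lower (blue, to the left) in cornea macrophages, with the number tested in brackets. The dashed lines mark the shares over all genes tested (17.3% and 15.8%), and microglial identity is called lower in all 25 members while NF-kB response, lectins and class II lie almost wholly on the higher side.

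The largest differences outside the lists treated apart were taken by rule, 15 in each direction. Among the higher ones not yet named, Il2ra, the alpha chain of the interleukin 2 receptor, stood at 94.3 and 219 CPM in the cornea pairs and 0 in retina (at least 11-fold, adjusted p = 0.000261) and came from 27 wells. Tnip3, a partner of A20, was at least 18.6-fold higher, and Lmna, which encodes the A-type lamins of the nuclear envelope, at least 32.2-fold. Cdo1, a cysteine dioxygenase (169 and 112 CPM), Dcstamp, a fusion protein of dendritic cells and osteoclasts (99.3 and 126), Metrnl, a secreted factor (134 and 112), and Wfdc17, a small secreted protein (189 and 107), also had no retina transcript. Cyr61, a matrix protein, stood at 79.4 and 175 CPM in the cornea pairs, and 1 well gave 52.002% of the Cyr61 transcripts.

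Among the lower ones, Lrrc17, a secreted leucine-rich repeat protein, stood at 0, 12.5, 10.7 and 0 CPM in cornea and 29.7, 1436, 607 and 1138 CPM in retina (ratio 117 (39.5 to 574), retina over cornea, adjusted p = 6.14e-07). Its retina transcripts came from 33 wells, so a minority of microglia carried it at this depth. Nav3, a neuron navigator protein, had a ratio of 143 (24.9 to 5729.9). Syngr1, a vesicle protein (185 and 144 CPM in the retina pairs), Chst1, a sulfotransferase (77 and 158), Cacna1d, a calcium channel subunit (77 and 68.7), Fam212a (154 and 109.9), Sh3tc1 (61.6 and 61.8), B130006D01Rik (92.3 and 82.4) and Gm38246 (92.3 and 54.9) had no cornea transcript. The unnamed gene 2610042L04Rik had a ratio of 87.1 (14.8 to 3514).

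The cornea wells were not uniform. The authors placed 117 of them in 7 clusters of 7 wells or more and the other 4 in 2 small ones, and the retina wells in 3. The clusters were made from these transcripts, so their levels are a description with no test, given here for the clusters of 7 wells or more. Among these cornea clusters, Mrc1, Pf4 and Apoe were highest in clusters 7, 8 and 9 (8, 13 and 10 wells), where Apoe reached 44270, 32273 and 10984 CPM, against 1574 CPM in cluster 3. Cluster 3 (33 wells) had the highest Mgl2 (1706 CPM), Cd209a (542 CPM) and Ccl22 (297 CPM), with H2-Aa at 26184 CPM, Csf1r at 882 CPM and Cx3cr1 at 131 CPM. Cluster 16 (7 wells, all of prefix P5) had the highest Cd207 (2683 CPM) and Mmp13 (1948 CPM), with Il1b at 8810 CPM. Of the 7 larger cornea clusters, these 2 had the lowest Mrc1 (175 and 43.2 CPM). Highest levels of dendritic and Langerhans genes together with the lowest of a macrophage gene go against the macrophage label for their wells. The retina clusters 13, 14 and 15 lay close together, with P2ry12 at 3176, 3552 and 3241 CPM.

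Clusters 3 and 16 were left out in a refit chosen after the data were seen. Of 3631 genes then tested, 625 were higher and 602 lower, 1168 of them called the same way in the full comparison. Microglial identity genes were lower in 24 of 24, and monocyte genes higher in 8 of 9. Among class II and costimulation genes 7 of 12 were higher and 2 lower, with H2-Aa at a log2 difference of 3.79 (adjusted p = 2.68e-06). Ccr2 remained higher (5.82, adjusted p = 1.75e-05) and so did Il1b (6.26). High Cd209a, Ccl22, Mgl2, Cd207 and Mmp13 and low Mrc1 picked out the clusters, so the refit says nothing of these genes.

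**Figure D4:**
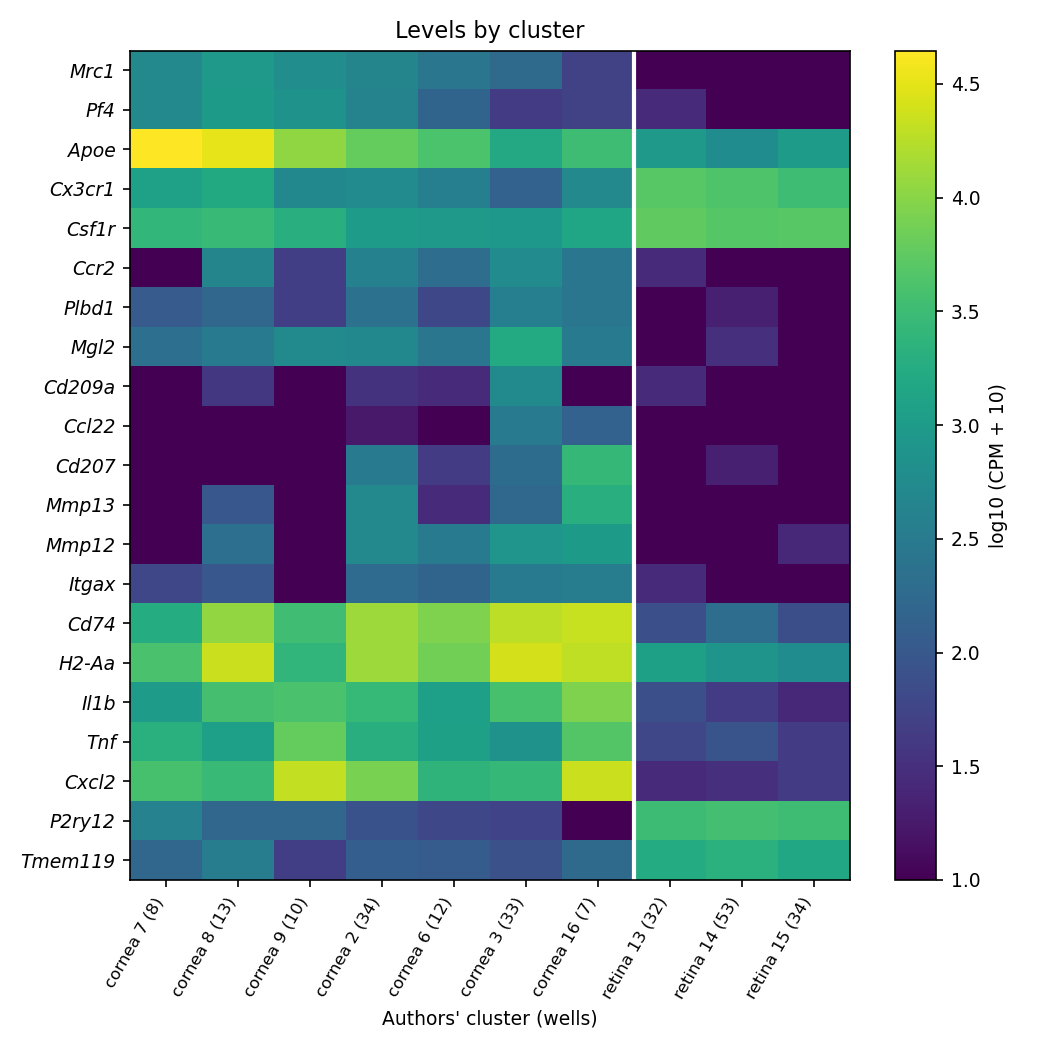
Level of 21 genes (rows) in the authors' clusters of cornea macrophages (left of the white line) and retinal microglia (right), as log10 of CPM plus 10, with the number of wells in brackets. Clusters of fewer than 7 wells are left out. Cluster 3 stands out in Cd209a, Ccl22 and Mgl2, cluster 16 in Cd207 and Mmp13 and clusters 7 and 8 in Apoe, while P2ry12 and Tmem119 are high in the retina clusters.

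Immediate early genes, which answer handling and stimulation within minutes, were treated apart. Of 34 tested, 30 were higher and 2 lower (median 3.34), and 24 of 30 were higher within prefix P2. Fos stood at 1429.5, 2207, 2619 and 3691 CPM in cornea and 297, 319, 482 and 257 CPM in retina (log2 difference 3.22 ± 0.42, adjusted p = 4.70e-05). Atf3 (6.40 ± 0.56), Fosb (6.03 ± 0.54), Egr1 (4.09 ± 0.47), Dusp2 (5.34 ± 0.51), Nfkbiz (4.74 ± 0.46) and Zfp36 (3.17 ± 0.39) were higher, and Nr4a1 had a ratio of 184 (32.7 to 7268). Jun, at 1365 and 1709.7 against 769.5 and 1058 CPM (0.96 ± 0.35, adjusted p = 0.0436), was among the smallest. The list was not one-sided. Dusp6, a phosphatase of ERK (84.4 and 58.3 against 416 and 543 CPM, -2.55 ± 0.35, adjusted p = 6.00e-05), and Rhob (129 and 233 against 1216 and 756 CPM, -2.18 ± 0.34, adjusted p = 0.000238) were lower, and Klf2 and Myc did not pass.

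For 10 measures the 4 cornea and 4 retina libraries were set against each other with an exact permutation test, two-sided, which cannot go below p = 0.0286. The test takes single libraries as the unit, and no label says that the libraries of a pair are independent. With pairs as the unit, no p could pass the threshold. The immediate early share of transcripts was 2.78% ± 0.8288 (SD, n = 4 libraries) in cornea and 0.698% ± 0.0357 in retina (exact permutation p = 0.0286, adjusted p = 0.0317). Ciliary body macrophages, sorted from the same study, ran from 1.73 to 3.01%, within the span of the cornea libraries or just below it. Heat shock genes followed the same order, at 1, 0.875, 0.987 and 1.39% in cornea and 0.178, 0.239, 0.279 and 0.253% in retina (exact permutation p = 0.0286, adjusted p = 0.0317), and 11 of 12 tested were higher (10, 9, 8 and 7 with 1 pair left out), among them Hsp90ab1 (2.07 ± 0.31), Dnaja1 (2.35 ± 0.39) and Hspa1a (6.05 ± 1.38). What set these shares was not tested.

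Epithelial RNA was in every cornea well. The epithelial markers held 0.791 to 8.96% of a cornea well's transcripts (median 2.57%), and 116 of 121 wells held 1% or more. Of the retina wells, 47 held none. Of 26 markers tested, 20 were higher and none lower (median 3.96, or 3.94 with genes at 0 at their bound). Krt12, the keratin of corneal epithelium, stood at 11984, 8126, 11216 and 6584 CPM in cornea and 0, 0, 804 and 937 CPM in retina, and was not called (4.38 ± 2.74, adjusted p = 0.326). The retina pair P1 held none and the pair P2 held it in both libraries. The desmosomal Dsp and the water channel Aqp3 were called, with ratios of 31.2 (10.5 to 153) and 22.2 (7.44 to 109). Stromal genes held little, at 0.0436% in cornea and 0.00385% in retina, with Dcn (ratio 11.2 (3.67 to 55.7)) and Col1a2 (ratio 7.06 (2.25 to 35.7)) higher.

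Both tissues left a trace in libraries of the other that carry the prefix P2. The epithelial share was 0.257 and 0.325% in the retina P2 libraries against 0.0149 and 0.00958% in P1, and the photoreceptor share 0.131 and 0.233% in the cornea P2 libraries against 0.0419 and 0.00532% in P5. Ciliary body libraries showed 0.283 to 0.308% epithelial transcripts in P4 and 0.0046 to 0.0186% in P3. Photoreceptor markers held 0.886, 0.479, 0.92 and 1.38% in the retina libraries, and 7 of 18 tested were lower in cornea (median -2.90). With 1 pair left out, the median was -5.27, -1.80, -3.17 and -2.06 over 20, 20, 19 and 16 genes tested. All 10 photoreceptor genes tested within prefix P2 were lower. How the traces arose was not tested.

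**Figure D5:**
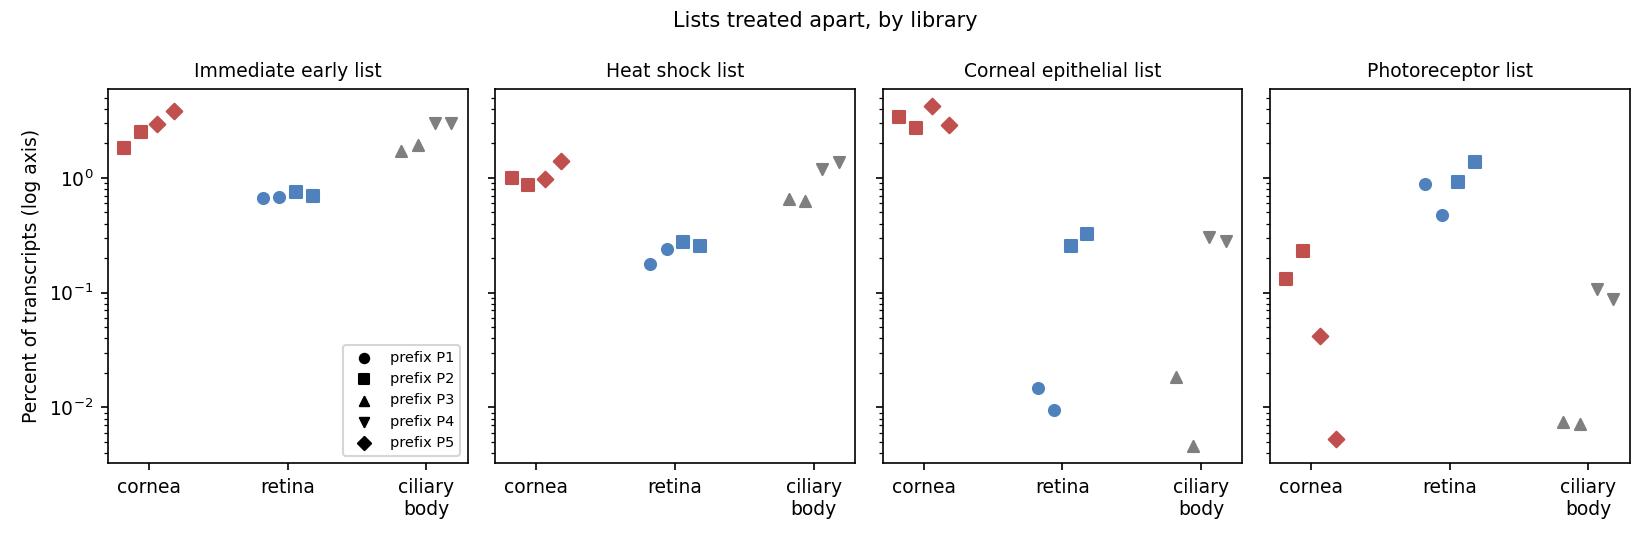
Percent of transcripts held by the immediate early, heat shock, corneal epithelial and photoreceptor lists in each library (log axis), for cornea macrophages (red), retinal microglia (blue) and ciliary body macrophages (grey), with the symbol giving the prefix. Cornea exceeds retina in the first 3 lists, and the retina libraries of prefix P2 hold more epithelial transcripts than those of P1.

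Markers of other cells were sparse, apart from mast cell genes in 1 cornea well. No T and NK cell or endothelial marker passed the filter on low counts. Ighm, the one B cell marker tested, stood at 124 and 151 against 354 and 240.4 CPM and did not pass (-0.83 ± 0.33, adjusted p = 0.0657). Mast cell markers had 0 of 5 called. Cma1 came wholly from 1 cornea well of cluster 6, which also gave 98.2% of the Mcpt4, 95.3% of the Tpsb2 and 94.6% of the Cpa3 transcripts. That well held 38 Cma1, 55 Mcpt4, 40 Tpsb2 and 35 Cpa3 transcripts, which go against its macrophage label, and it is among the 121 cornea wells compared. Glul, glutamine synthetase of glia and of microglia, was lower (432 and 316 against 1077 and 1216 CPM, -1.40 ± 0.30, adjusted p = 0.00235), and Cxcr2, on the neutrophil list, was lower too (-2.68 ± 0.55). The pigment cell gene Dct did not pass (1.20 ± 3.72). Only 5 cornea wells held under 1% each of epithelial and photoreceptor transcripts. In those wells against 75 such retina wells, 134 of 1738 genes were higher and 273 lower, and the median over all genes was -0.60. Microglial identity genes were lower there in 23 of 24. The counts of higher genes were 0 of 71 for ribosomal proteins, 2 of 19 for actin genes, 0 of 4 for C-type lectins, 3 of 9 for heat shock, 17 of 31 for immediate early, 3 of 9 for tissue macrophage and 2 of 6 for lipid genes. In further lists, 6 of 6 monocyte, 8 of 12 NF-kB response and 6 of 10 class II and costimulation genes were higher and 0 lower. Among chemokines 8 of 12 were higher and 1 lower, and in the S100, annexin, galectin and vimentin list 8 of 17 and 1. By DESeq2 over all wells, 12 of 26 epithelial and 2 of 15 interferon response genes were higher, and 7 of 30 transcription factors, 3 of 14 TGF-beta pathway and 3 of 12 general macrophage genes were lower.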

How the data were processed

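Single CD45+ cells, stained for CD45 and CD11b, were sorted into 384-well plates and sequenced as libraries of 192 wells whose wells are numbered alike in every library. The values are estimated counts of transcripts deposited by the authors, per gene and well. Molecular identifiers were counted and corrected for collisions, per the file values, which gave whole numbers within 0.001 on inversion with 4096 identifiers. The submitters' processing notes name BWA 0.6.2-r126, while the genome build and the annotation are not stated in the labels or file headers. The authors' table of the 429 annotated wells carries no gene names, and its 19705 rows with transcripts were named by exact equality with the library tables (16471 of them have a profile over wells that no other gene shares). It leaves out 276 genes, 0 mitochondrial genes remain in it, and the left-out genes held 38.9% of transcripts.

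Wells were chosen by the authors' annotation, no doublet caller was run, and counts were rounded after summing over the wells of each pair of libraries with 1 prefix. The 6 sums (2 cornea, 2 retina and 2 of ciliary body macrophages, which enter only to share the estimate of spread) were fitted with edgeR 4.0.16 in R 4.3.3 (limma 3.58.1, filterByExpr, TMM, robust quasi-likelihood test) with Benjamini-Hochberg adjustment at 0.05, and standard errors follow from the F statistic. DESeq2 1.42.0, other scalings, single libraries with and without a replicate block, refits without wells, genes, pairs or clusters and thinned counts were alternatives. A group with no transcript was set to 3 transcripts over the group for a lower bound on a fold, and with 1 to 3 transcripts a ratio with its exact 95% counting interval is given in place of a fitted difference, both on raw totals (medians with genes at their bound use totals times the TMM factors). Intervals and limits of a count of 0 cover counting error only.

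The cells, the 44 gene lists and the rules were chosen with earlier results of these data known. Named genes were the 15 largest differences in each direction among called genes of at least 50 CPM, up to 4 members of each list by adjusted p, and markers fixed by name. Other list members named in the text were chosen after their values were seen. Lists are described by counts and medians beside those of all genes tested, with no set test. A few genes of the lists enter the counts but are not reported here by name.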

Additional observations from a re-analysis of the deposited data

Results flagged for a closer look

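Among 273 groups of 4 libraries examined (measures per library in each tissue, and named genes that reach 50 CPM in a library of cornea or retina), 11 held a library whose gap to its nearest neighbour was too large a part of the group's range for Dixon's test at the 95% level, and chance flags about 1 in 20 groups. Values are CPM per library.

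Of the 11, 5 were in cornea P2 library 1, which holds 6 wells. It was the extreme library for Ftl1 (ferritin light chain) at 3764, Ifih1 (a sensor of double-stranded RNA) at 262, Il1a (interleukin 1 alpha) at 190.6, Ptprc (CD45) at 524 and S100a4 (a calcium-binding protein) at 405. In the cornea P5 libraries, Cd14 (a co-receptor for bacterial lipopolysaccharide) stood at 3292 in library 2, and Il1r2 (the decoy receptor for interleukin 1) at 215 and Spi1 (PU.1, a myeloid transcription factor) at 268 in library 1. In retina, Fcgr4 (an activating Fc receptor) stood at 29.7 in P1 library 1, S100a4 at 63.8 in P1 library 2 and Tpm4 (a tropomyosin) at 89.3 in P2 library 2.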

How the results depend on the processing

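Of 4705 genes tested, 1558 were called, and the count was 948 with DESeq2, 737 within prefix P2, 741 with sums thinned to the smallest, 627 with wells thinned to equal totals and 407 with wells under 1% epithelial and photoreceptor transcripts, which leave 5 cornea and 75 retina wells. Fewer genes could be tested in all of these but DESeq2 (1408 to 1738). Leaving out 1 pair gave 923 (retina P2) to 1400 genes. Deviations of the libraries numbered 1, averaged over the pairs of a tissue, correlated at r = -0.0166 between cornea and retina over 3690 genes. The tissues share only the prefix P2, so this value cannot exclude a pairing by library number. A replicate block on library number gave 1094 calls, against 1116 for single libraries without it. Over 3040 refits of 157 named genes, 2895 kept direction and side of the threshold, 122 lost the call, 13 gained one and 10 changed sign. In the wells under 1%, the log2 difference was -0.84 for Adgre1, -0.76 for Atp5e, -1.90 for Cox6b1, -0.35 for Ftl1, -0.37 for Ndufa4, -0.70 for Ptprc and -0.60 for Spi1. Ptprc was at -0.15 with library totals, -0.12 with thinned sums and -0.11 without cornea clusters 3 and 16. The cause was not tested.

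Leaving out 1 library moved the difference in share from 1.73 to 2.39 points for immediate early genes, 0.717 to 0.889 for heat shock, 2.85 to 3.35 for epithelial, 0.0324 to 0.0503 for stromal, -0.958 to -0.659 for photoreceptor, 2.99 to 4.06 for ribosomal, -5.32 to -1.09 for mitochondrial and -18.5 to -14.1 for the repeat-rich Gm10800 transcripts. The median transcripts per well then differed by 909 to 1814 and the genes per well by 221.6 to 495.75. Without any 1 of the retina libraries, the 9 measures called over all libraries, mitochondrial share not among them, had adjusted p of 0.0571 to 0.159 in the exact permutation test of 4 against 3 libraries; the photoreceptor share (adjusted p = 0.0635) also lost its call without any cornea library, and genes per well (0.0635) without cornea P2 library 1. In wells of at least 1000 transcripts and at most 25% mitochondrial ones, the mitochondrial difference was 1.03 points, and that of genes per well, 402.6, lost its call (adjusted p = 0.0635).

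Shares of wells depend on depth. Without thinning, P2ry12 was in 21.5% of cornea and 95.8% of retina wells, Mrc1 in 42.1% and Ccr2 in 36.4% of cornea wells, H2-Aa in 53.8% of retina and Il1b in 80.99% of cornea wells. Thinned to 2000 transcripts, P2ry12 was in 100% of retina wells, Mrc1 in 39.1% and Il1b in 80.4% of cornea wells, H2-Aa in 58.1%, Ccr2 in 0% and Cd207 in 0% of retina wells, where a count of 0 allows up to 9.68%. A fit without mitochondrial genes was not run, as the table holds 0 of them.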

Other observations

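Some listed genes had too few transcripts to be tested and are given as sums over all wells of a tissue. Fn1, which encodes fibronectin, had 20 transcripts in cornea macrophages and 0 in retinal microglia, and Spp1, which encodes osteopontin, had 17 and 0. Cdk1, the kinase that drives entry into mitosis, had 32 transcripts in cornea, 24 of them in P5, and 0 in retina. Set against 3 transcripts over the retina group, Cdk1 was at least 5.51-fold, Fn1 at least 3.45-fold and Spp1 at least 2.93-fold higher in cornea. Ifit3, an interferon-induced gene, had 33 transcripts in cornea and 8 in retina.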
